A study of Oryza sativa Japonica Group with 4 samples.

Results

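The regions around the centromeres of the 12 rice chromosomes were examined for lysine crotonylation (Kcr) and for crotonylation of lysine 14 of histone H3 (H3K14cr). Members were the enriched regions whose midpoint lay within 1 Mb of the centromere position of their chromosome. Of 29736 regions in both lists, 1382 met this rule, 552 in the Kcr list and 830 in the H3K14cr list. They are called the centres here, and they were compared with the flanks at 1 to 5 Mb on both sides of the same position, which held 6116 regions (2050 Kcr and 4066 H3K14cr). The material was mainly leaf tissue of 2-week-old seedlings of the japonica cultivar Nipponbare, grown in water in a greenhouse after 72 h of germination. ChIP-seq, the sequencing of DNA recovered with an antibody from digested chromatin, was done with a pan anti-Kcr antibody in 2 libraries and with an antibody to H3K14cr in another 2. All libraries came from plants of the same cultivar, stage and growth condition. Each mark has 1 deposited list for both of its libraries, so the depth is unknown and no value per library could be given.

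The centromere positions used were 16.7, 13.6, 19.4, 9.7, 12.4 and 15.3 Mb on chromosomes 1 to 6 and 12.1, 12.9, 2.8, 8.2, 12 and 11.9 Mb on chromosomes 7 to 12. Each centre spanned 2 Mb, and each pair of flanks 8 Mb. On chromosome 9, whose centromere lies close to the chromosome start, the flank at lower coordinates was 1.8 Mb long and both flanks together 5.8 Mb. The centres made up 6.43% of the span of the lists, and they held 5.05% of all Kcr regions and 4.41% of all H3K14cr regions. The sources used here do not give the genome build of the lists, so positions are printed as deposited and no genes were assigned. The centromere positions and the lists may therefore stand on different builds. Positions moved by 0.5 Mb either way were tried as alternatives, but such a move keeps most of each 2 Mb centre. It cannot test for a larger error of position.

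A plant centromere is built on nucleosomes with the histone variant CENH3 in place of H3, which hold the kinetochore. In rice these nucleosomes sit on arrays of the satellite CentO and on centromeric retrotransposons, and the chromosome parts around them are rich in transposons and poor in genes. Crotonylation adds a short unsaturated acyl group to lysine, and in mammalian cells it is known as a mark of active promoters and enhancers. A lysine 14 antibody reads the modification on H3 only, whereas a pan antibody can read any crotonylated lysine.

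H3K14cr regions were sparser around the centromeres than in the flanks, while Kcr regions were not detectably so. H3K14cr density averaged 34.6 ± 8.1 regions per Mb in the centres and 43.3 ± 3.4 in the flanks (SD, n = 12 chromosomes). The geometric mean of the 12 density ratios was 0.781, a mean log2 ratio of -0.36 ± 0.34 (SD), and the ratio was below 1 on 11 of 12 chromosomes (two-sided exact sign-flip permutation test over chromosomes, p = 0.00293, Benjamini-Hochberg adjusted p = 0.00527 over 9 tests). Kcr density averaged 23.0 ± 7.0 regions per Mb in the centres and 21.8 ± 3.8 in the flanks. Its mean log2 ratio was 0.03 ± 0.51, with 7 chromosomes above and 5 below their flanks (exact permutation test, adjusted p = 0.934). All p-values of this kind measure how even a contrast was over chromosomes. The chromosomes share the same libraries, so no biological variation enters them.

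The marks differed from each other in this contrast. The log2 density ratio of Kcr exceeded that of H3K14cr by 0.38 ± 0.29 on average (SD, n = 12), and it was the higher on 10 of 12 chromosomes (exact permutation test, p = 0.00244, adjusted p = 0.00527). As a ratio of ratios this is 1.31, with a range of 0.938 on chromosome 5 to 1.83 on chromosome 12. Both marks were counted over the same windows, so the window length cancels in this difference. Kcr made up 39.5% ± 3.1 of all regions in the centres and 33.4% ± 3.0 in the flanks. The share was the lower in the centre on chromosomes 3 (38.3% in the centre, 39.2% in the flanks) and 5 (32.3% in the centre, 33.7% in the flanks). Of all 29736 regions, 10923 were Kcr regions, and the chromosome parts beyond the flanks held 8321 Kcr and 13917 H3K14cr regions. With everything beyond 1 Mb as the comparison in place of the flanks, the log2 difference between the marks was 0.19. It was positive on 10 of 12 chromosomes (exact permutation test, adjusted p = 0.0126).

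H3K14cr also covered fewer bases around the centromeres. Coverage depends on the number and width of the same regions, so it is not separate evidence from density and width. H3K14cr regions covered 5.53% ± 1.26 of the bases of the centres and 7.74% ± 0.63 of the flanks (SD, n = 12). The share was the lower in the centre on 12 of 12 chromosomes, with a geometric mean ratio of 0.70 and a mean log2 ratio of -0.51 ± 0.32 (exact permutation test, p = 0.000488, the smallest that 12 chromosomes can give, adjusted p = 0.0022). Coverage ratios ran from 0.487 on chromosome 11 to 0.888 on chromosome 7. With a centre of 2 Mb to each side and flanks from 2 to 5 Mb, the mean log2 ratio was -0.24, below 0 on 9 of 12 chromosomes (exact permutation test, adjusted p = 0.0141). Kcr regions covered 2.72% ± 0.80 of the centres and 2.63% ± 0.49 of the flanks, a mean log2 ratio of 0.011 ± 0.47 with 6 chromosomes on each side of 0 (exact permutation test, adjusted p = 0.934).

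**Figure D1:**
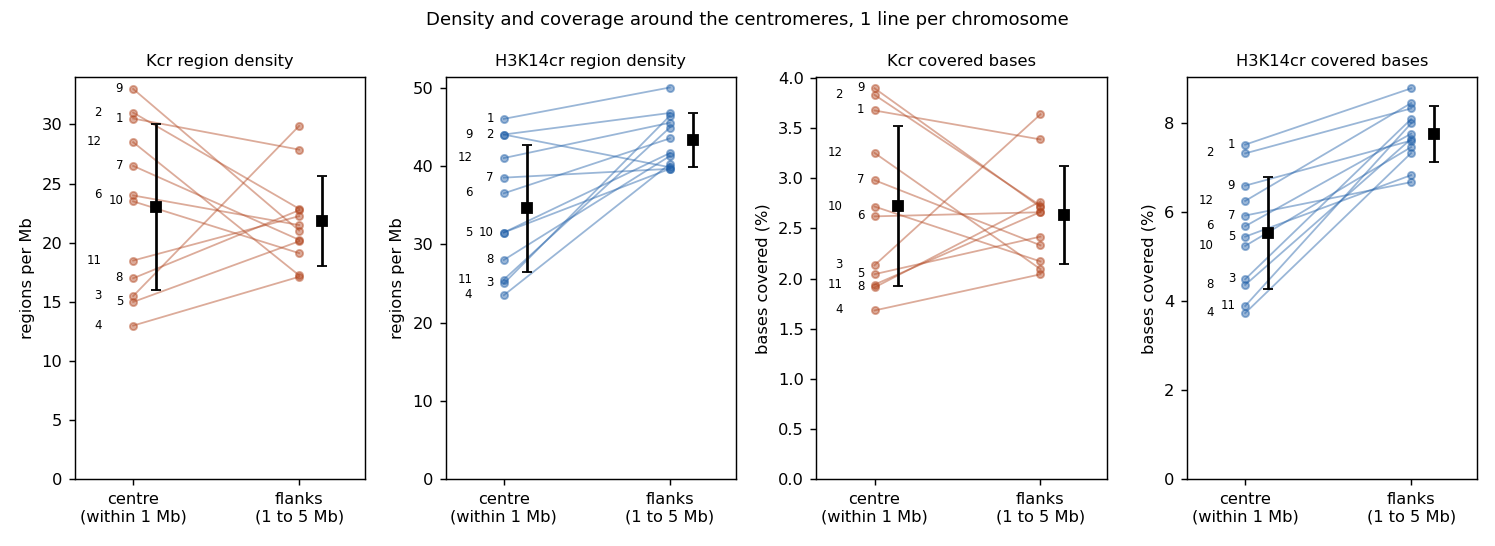
Region density (regions per Mb) and share of bases covered (%) in the centres and in the flanks, for Kcr (orange) and H3K14cr (blue). Each line joins the values of a chromosome, whose number stands at its left end, and black squares with bars are the mean and SD over 12 chromosomes; coverage by H3K14cr was lower in the centre on 12 of 12 chromosomes, whereas Kcr lines cross in both directions.

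Against the whole remaining chromosome the picture for Kcr was another. When the centres were compared with everything beyond 1 Mb in place of the flanks, the mean log2 ratio of Kcr density was -0.40, with 10 of 12 chromosomes below 0 (exact permutation test, adjusted p = 0.0171). For H3K14cr it was -0.59, with 12 of 12 below 0 (exact permutation test, adjusted p = 0.0011). The flanks themselves were sparse in both marks: pooled over chromosomes, Kcr had 23.0 regions per Mb in the centres, 21.9 in the flanks and 32.6 in the rest of the chromosomes. H3K14cr had 34.6 regions per Mb in the centres, 43.3 in the flanks and 54.5 in the rest.

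By distance, the low H3K14cr density lay in the innermost megabase. In the bins of 0.5 Mb nearest to the position, both sides averaged, H3K14cr had 31.0 ± 8.8 regions per Mb (SD, n = 12), with a range of 22 to 46. The next bins, at 0.5 to 1 Mb, had 38.2 ± 10.1, and every bin from 1 to 5 Mb had a mean between 40.2 and 45.7. Kcr means stayed between 20.1 and 24.6 regions per Mb in all 10 bins out to 5 Mb, with 21.4 ± 9.0 in the innermost bin and 24.6 ± 8.3 in the next. With a centre of 0.5 Mb to each side, the mean log2 ratio was -0.53 for H3K14cr (11 of 12 chromosomes below 0, exact permutation test, adjusted p = 0.00293) and -0.14 for Kcr (7 of 12 below 0, adjusted p = 0.498). With a centre of 2 Mb to each side and flanks from 2 to 5 Mb, the H3K14cr ratio no longer passed the test (mean log2 ratio -0.15, 9 of 12 chromosomes below 0, exact permutation test, adjusted p = 0.0952).

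**Figure D2:**
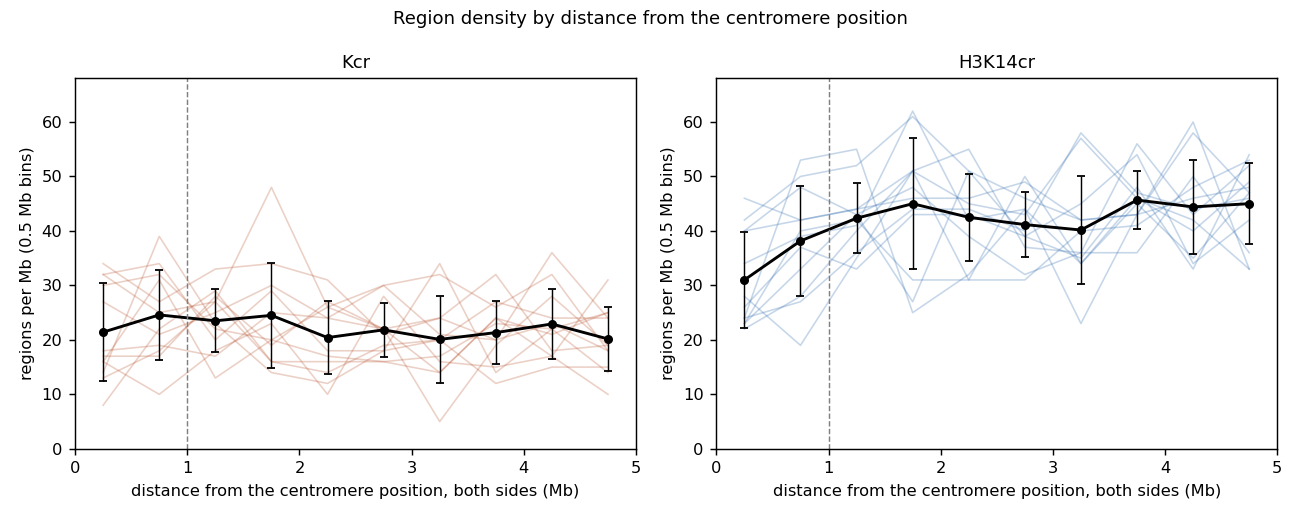
Regions per Mb by distance from the centromere position (Mb), in bins of 0.5 Mb with both sides averaged. Thin lines are single chromosomes, black points with bars the mean and SD over 12 chromosomes, and the dashed line marks the border of the centre at 1 Mb; H3K14cr has its lowest mean, 31.0, in the innermost bin, and Kcr means lie between 20.1 and 24.6 throughout.

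Chromosomes varied widely in Kcr around the centromere. The centre of chromosome 12 held 57 Kcr regions, or 28.5 per Mb, against 17.2 per Mb in its flanks (138 regions), a ratio of 1.65 with a 95% exact interval of 1.19 to 2.27. Chromosome 9 had 66 regions in the centre (33 per Mb) and 122 in the flanks (21.0 per Mb), a ratio of 1.57 (1.14 to 2.13). At the other end, the centre of chromosome 3 held 31 Kcr regions (15.5 per Mb) and its flanks 239 (29.9 per Mb), a ratio of 0.519 (0.345 to 0.756). These were the 3 chromosomes whose counting interval left out 1. The intervals cover counting error only, and neighbouring regions are not independent, so they may be too narrow.

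Of the remaining chromosomes, 5 had more Kcr regions per Mb in the centre than in the flanks. Chromosome 2 had 31 per Mb in the centre and 22.9 in the flanks, and chromosome 7 had 26.5 in the centre and 20.2 in the flanks. Chromosome 10 had 23.5 in the centre and 19.1 in the flanks. The contrast was smaller on chromosome 6, with 24 in the centre and 21.5 in the flanks, and on chromosome 1, with 30.5 in the centre and 27.9 in the flanks. The other 4 had fewer. Chromosome 4 had 13 per Mb in the centre, the lowest Kcr density of all centres, and 17.1 in the flanks. Chromosome 5 had 15 in the centre and 20.1 in the flanks, and chromosome 8 had 17 in the centre and 22.8 in the flanks. Chromosome 11 had 18.5 in the centre and 22.2 in the flanks. When each chromosome was tiled outward from its centre in windows of 2 Mb, the centre was the window with the fewest Kcr regions on 3 of 12 chromosomes (3, 5 and 8). On chromosome 12, 8 of the other windows held fewer Kcr regions than the centre.

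H3K14cr had its lowest ratio on chromosome 3, where the centre held 50 regions (25 per Mb) and the flanks 371 (46.4 per Mb), a ratio of 0.539 (95% exact interval 0.393 to 0.726). Chromosome 11 followed with 51 regions in the centre and 359 in the flanks, a ratio of 0.568 (0.415 to 0.764). Chromosome 4 had 47 in the centre and 322 in the flanks, a ratio of 0.584 (0.42 to 0.795). On chromosomes 8 (0.679, interval 0.502 to 0.903) and 10 (0.757, interval 0.569 to 0.993) the interval also lay below 1. Only on chromosome 9 was the H3K14cr density higher in the centre, with 88 regions or 44.0 per Mb, against 231 or 39.8 per Mb in the flanks, a ratio of 1.105 (0.854 to 1.42). The coverage of H3K14cr was still lower in that centre, at 6.59% in the centre and 7.60% in the flanks.

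The remaining 6 chromosomes had H3K14cr ratios between 0.795 and 0.972. Chromosome 7 had 77 regions in its centre (38.5 per Mb) and 39.6 per Mb in the flanks. Chromosome 2 had 88 in its centre (44.0 per Mb) and 46.8 per Mb in the flanks. Chromosome 1 had 92 in its centre (46 per Mb) and 50 per Mb in the flanks. Chromosome 12 had 82 in its centre (41 per Mb) and 45.5 per Mb in the flanks. Chromosome 6 had 36.5 per Mb in the centre and 43.5 in the flanks, and chromosome 5 had 31.5 in the centre and 39.6 in the flanks. Among windows of 2 Mb, the centre had the fewest H3K14cr regions of its chromosome on 5 of 12 chromosomes (3, 4, 8, 10 and 11), and it was among the 3 lowest on 11 of 12, chromosome 9 being the exception.

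The density contrast of H3K14cr was found against the flank on either side of the position. The mean log2 density ratio was -0.36 against the flank at lower coordinates and -0.35 against the flank at higher coordinates, with 11 of 12 chromosomes below 0 in both (exact permutation test, adjusted p = 0.00549 and 0.00791). The Kcr flanks of chromosome 12 were uneven, with 21.5 regions per Mb on the lower side and 13 on the higher. Those of chromosome 6 were uneven in both marks, with 25.8 Kcr regions per Mb on the lower side and 17.2 on the higher, and with 49.5 H3K14cr regions per Mb on the lower side and 37.5 on the higher.

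**Figure D3:**
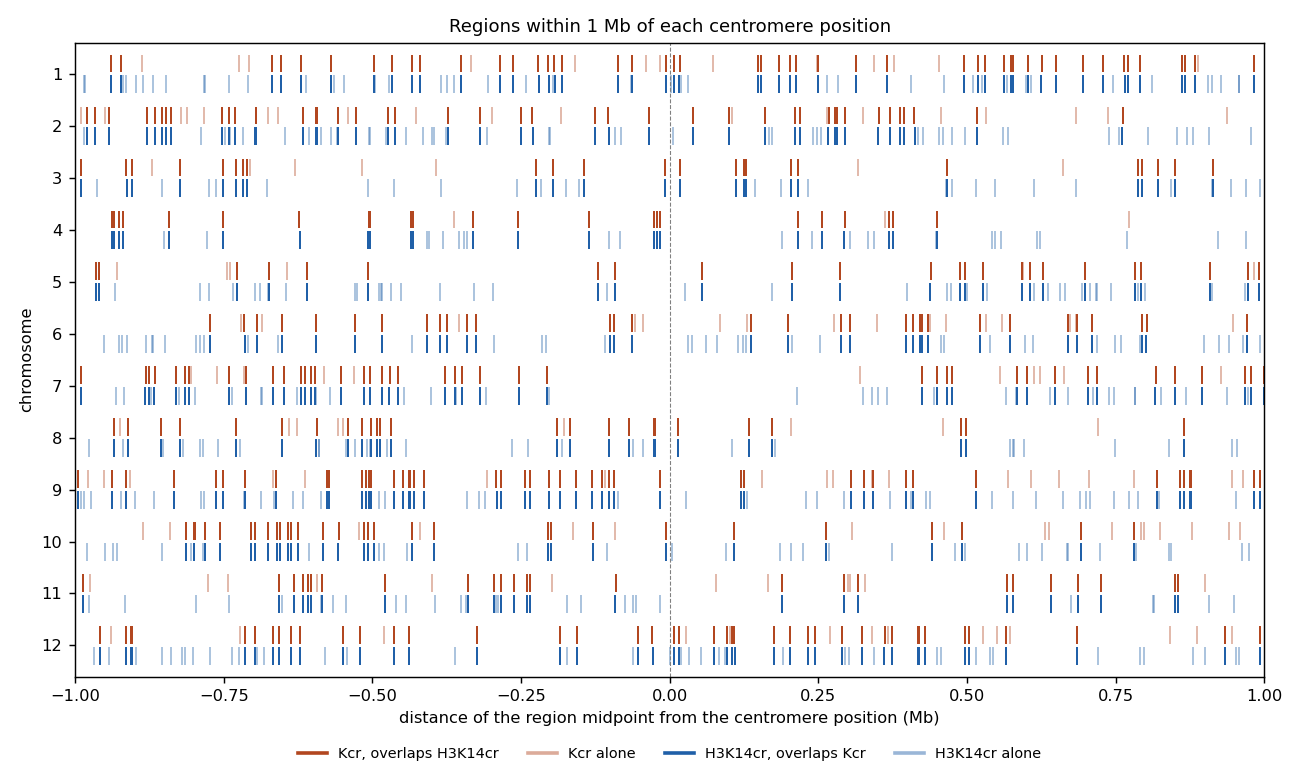
Midpoints of all regions within 1 Mb of the centromere position on each chromosome, as distance from that position (Mb). For each chromosome Kcr (orange) stands above H3K14cr (blue), dark strokes are regions that overlap the other mark and pale strokes are regions alone. On chromosomes 4 and 7 the longest stretch of the centre without either mark holds the position.

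H3K14cr regions of the centres overlapped Kcr more often than those of the flanks. Regions with at least 1 bp in common with the other mark counted as shared. In the centres 404 of 830 H3K14cr regions, or 48.7% (95% Wilson interval 45.3 to 52.1%), were shared, beside 37.1% of the H3K14cr regions of all chromosomes. Over chromosomes the share averaged 48.2% ± 4.6 in the centres and 34.0% ± 3.0 in the flanks (SD, n = 12), a difference of 14.3 ± 5.8 percentage points. The centre had the higher share on 12 of 12 chromosomes (exact permutation test, p = 0.000488, adjusted p = 0.0022). The difference was largest on chromosome 7, at 54.5% in the centre and 31.5% in the flanks, closely followed by chromosome 12, at 51.2% in the centre and 28.3% in the flanks. It was smallest on chromosome 5, at 38.1% in the centre and 33.1% in the flanks. In the wider 50% of each list the difference was 6.02 points and did not pass (9 of 12 chromosomes above 0, exact permutation test, adjusted p = 0.118).

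Of the Kcr regions of the centres 405 of 552, or 73.4% (69.5 to 76.9%), overlapped H3K14cr, beside 63.9% of the Kcr regions of all chromosomes. The mean over chromosomes was 74.1% ± 7.0 in the centres and 68.2% ± 5.0 in the flanks. The difference of 5.93 ± 9.25 points was positive on 8 of 12 chromosomes and did not pass the test (exact permutation test, p = 0.0518, adjusted p = 0.0776). It passed with a criterion of 50% reciprocal overlap, at 9.02 points (exact permutation test, adjusted p = 0.00659), and was -6.74 points in the wider 50% of each list (adjusted p = 0.457). The highest share was on chromosome 4, where 23 of 26 Kcr regions of the centre (88.5%) overlapped H3K14cr, against 73.7% in its flanks. The lowest was on chromosome 10, with 63.8% in the centre and 69.9% in the flanks. The share expected from density alone differs between zones and was not computed.

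H3K14cr regions with no Kcr were sparser in the centres on every chromosome. Their density averaged 17.8 ± 3.7 per Mb in the centres and 28.5 ± 2.2 per Mb in the flanks (SD, n = 12), with ratios from 0.432 on chromosome 4 to 0.793 on chromosome 9. The mean log2 ratio was -0.71 ± 0.31, below 0 on 12 of 12 chromosomes (exact permutation test, p = 0.000488, adjusted p = 0.000732 over 3 tests that were chosen after the values had been seen). It was -0.41 with a centre of 2 Mb to each side and -1.01 with a centre of 0.5 Mb, below 0 on 12 of 12 chromosomes in both. H3K14cr regions that overlapped Kcr had 16.8 ± 5.0 per Mb in the centres and 14.7 ± 2.1 in the flanks, and 7 of 12 chromosomes were higher in the centre. The ratios of these shared regions ran from 0.701 on chromosome 3 to 1.68 on chromosomes 7 and 9. Kcr regions with no H3K14cr had 6.12 ± 2.61 per Mb in the centres and 7.05 ± 2.21 in the flanks, with ratios from 0.275 on chromosome 3 to 1.76 on chromosome 12. The difference in share given above and this contrast rest on the same counts, so they are not separate evidence.

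**Figure D4:**
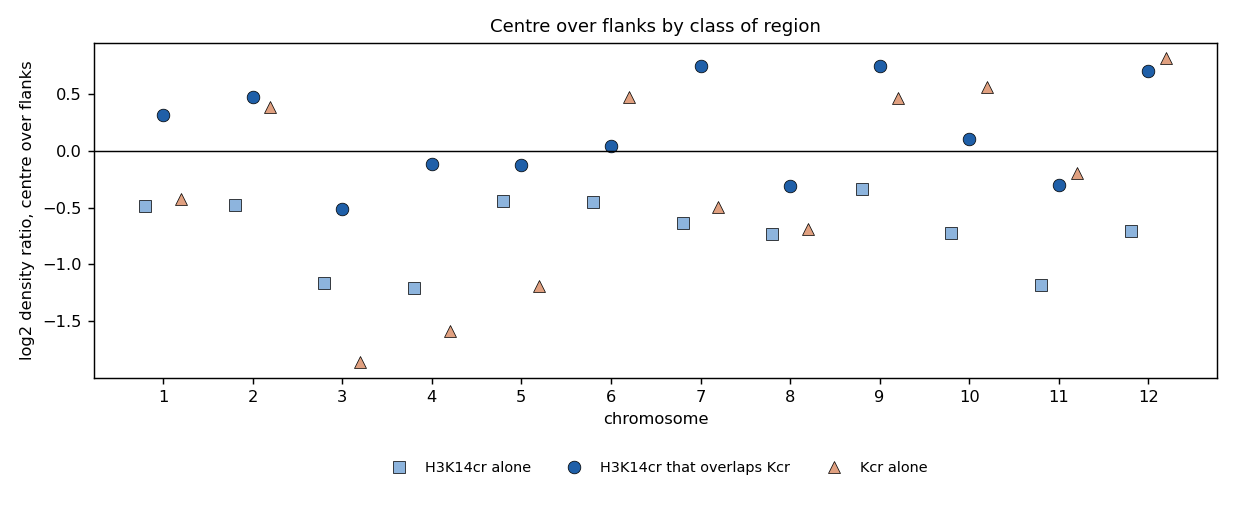
Log2 ratio of region density, centre over flanks, per chromosome, for H3K14cr regions without Kcr (pale blue squares), H3K14cr regions that overlap Kcr (dark blue circles) and Kcr regions without H3K14cr (pale orange triangles). The squares lie below 0 on 12 of 12 chromosomes, and the circles above 0 on 7.

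H3K14cr regions were also narrower around the centromeres. Their median width averaged 1340 ± 88 bp in the centres and 1513 ± 62 bp in the flanks (SD, n = 12), a difference of -174 ± 126 bp, negative on 11 of 12 chromosomes (exact permutation test, p = 0.000977, adjusted p = 0.00293). Chromosome 3 was the exception, at 1548 bp in the centre and 1466 bp in the flanks. The extreme on the other side was chromosome 12, at 1210 bp in the centre and 1560 bp in the flanks. The difference was -130 bp against the flank at lower coordinates and -213 bp against that at higher coordinates. Among the wider 50% of regions the value was -43.1 bp and did not pass (8 of 12 negative, exact permutation test, adjusted p = 0.479). Regions over 2000 bp made up 20.7% of the H3K14cr regions of the centres (172 of 830, Wilson interval 18.1 to 23.6%) and 28.7% of those of the flanks (27.4 to 30.1%), beside 33.8% of the H3K14cr regions of all chromosomes and 36.1% of those beyond the flanks.

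Wide H3K14cr regions in particular were counted per Mb. They are part of the regions behind the density and width contrasts above, so their count is not separate evidence. Those over 2000 bp had 7.17 ± 1.91 per Mb in the centres and 12.5 ± 1.4 in the flanks, a geometric mean ratio of 0.561, lower in the centre on 12 of 12 chromosomes (exact permutation test, p = 0.000488, adjusted p = 0.000732 over the same 3 added tests). The mean log2 ratio was -0.83, against -0.43 with a centre of 2 Mb to each side, where 11 of 12 chromosomes were lower, and -1.30 against the rest of the chromosome. Regions up to 2000 bp had 27.4 ± 7.0 per Mb in the centres and 30.8 ± 2.7 in the flanks, and 8 of 12 chromosomes were lower in the centre. Among shared H3K14cr regions the pooled median width was 1264 bp in the centres and 1343 bp in the flanks, and among those without Kcr it was 1472 bp in the centres and 1606 bp in the flanks, so both class medians were the lower in the centres.

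No change in width between the zones was detected for Kcr. The median width averaged 1122 ± 64 bp in the centres and 1117 ± 34 bp in the flanks, a difference of 5.5 ± 66.5 bp (7 of 12 chromosomes positive, exact permutation test, adjusted p = 0.934). The change in median width of Kcr minus that of H3K14cr was 179 ± 134 bp, positive on 11 of 12 chromosomes (exact permutation test, p = 0.00146, adjusted p = 0.00146 over the 3 added tests). It was 30.9 bp in the wider 50% of each list and did not pass there (exact permutation test, adjusted p = 0.624). Against the whole remaining chromosome, Kcr regions of the centres were narrower by a mean difference of -81.1 bp (11 of 12 negative, exact permutation test, adjusted p = 0.00176).

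**Figure D5:**
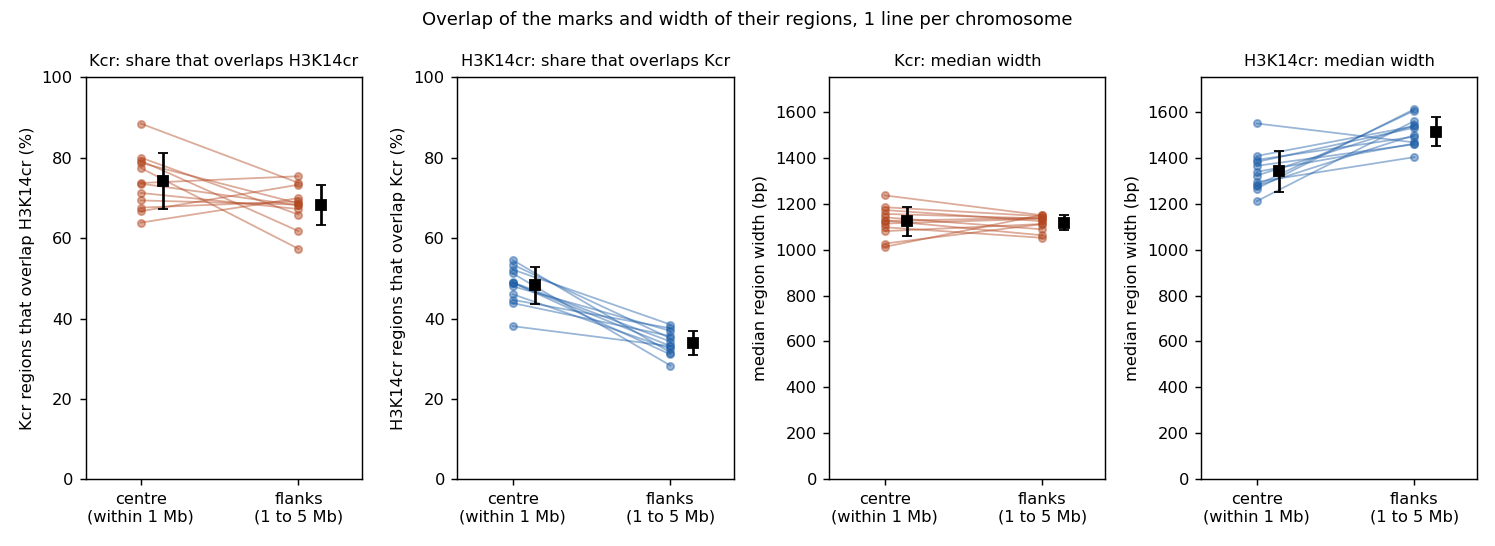
Share of regions that overlap the other mark (%) and median region width (bp) in the centres and in the flanks, for Kcr (orange) and H3K14cr (blue). Each line is a chromosome, and black squares with bars are the mean and SD over 12 chromosomes; the share of H3K14cr regions that overlap Kcr averaged 48.2% in the centres and 34.0% in the flanks, and the median width of H3K14cr regions 1340 bp in the centres and 1513 bp in the flanks.

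Where the marks overlapped, their borders lay somewhat closer in the centres on 9 of 12 chromosomes, by the median at the less well matched end. At the less well matched end the borders were a pooled median of 146 bp apart over 405 overlapping pairs of the centres and 176 bp apart over 1392 pairs of the flanks. At the better matched end they were apart by 35 bp in the centres and 47 bp in the flanks. Both edges matched within 100 bp in 147 pairs of the centres (36.3%) and 369 pairs of the flanks (26.5%), beside 1753 of the 7027 pairs of all chromosomes (24.9%). The H3K14cr region was wider than its Kcr partner by a median factor of 1.07 ± 0.05 in the centres and 1.12 ± 0.03 in the flanks (mean of chromosome medians ± SD, n = 12), and the factor was the lower in the centre on 11 of 12 chromosomes. These values of pairs are a description and were not tested.

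The distance from each position to the nearest region of each mark was measured. What density alone would give for any point of a chromosome was not computed. The nearest H3K14cr region lay at a median distance of 13.8 kb over the 12 chromosomes (0.406 to 202 kb), and the nearest Kcr region at 15.5 kb (5.16 to 205 kb). On chromosome 12 an H3K14cr region at 11900406 to 11901438 began 406 bp from the position, and the nearest Kcr region, at 11906167 to 11907545, lay 6.17 kb away. On chromosome 1 the nearest Kcr region was at 16693768 to 16694844. The farthest were on chromosome 7, with H3K14cr at 11896725 to 11897789 and Kcr at 11893493 to 11894580. The positions are given to 0.1 Mb only, and whether they belong to the build of the lists could not be checked, so these distances do not locate a region relative to the kinetochore. The nearest region overlapped the other mark for Kcr on 10 of 12 chromosomes and for H3K14cr on 4. Of the regions of all chromosomes, 63.9% of Kcr and 37.1% of H3K14cr overlapped the other mark, so these counts of 12 single regions show no trait of the position.

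Long stretches without either mark took up more of most centres than of the flanks, a contrast that was not tested. Stretches over 50 kb made up 40.5% ± 17.8 of the bases of the centres and 24.1% ± 5.1 of the flanks (SD, n = 12), and the share was the higher in the centre on 11 of 12 chromosomes, all but chromosome 1. The longest lay on chromosome 7 between 11897789 and 12313168 (415 kb) and held the centromere position. That of chromosome 4, at 9685112 to 9888557 (203 kb), held it too, whereas on the other 10 chromosomes the longest stretch of the centre lay beside the position. Shorter stretches over 50 kb held the position on chromosomes 5, 6 and 11. Examples are 15254828 to 15329604 on chromosome 6 and 11984429 to 12076664 on chromosome 11. Chromosome 8 had a stretch of 255 kb at 13104071 to 13358858 and chromosome 11 one of 238 kb at 12329206 to 12566884. On chromosome 1 the longest was 75.6 kb. Long stretches were not particular to the centres: the flanks, which are longer, held a stretch of 355 kb on chromosome 7 and one of 313 kb on chromosome 6, and the longest stretch of the flanks exceeded that of the centre on 7 of 12 chromosomes. The share of such stretches was 49.6 to 73.2% in the centres of chromosomes 3, 4, 5, 8 and 11, the same 5 in which Kcr density was below that of the flanks, and 10.4 to 38.4% in the other centres. Fewer regions make longer stretches by arithmetic. Whether assembly gaps or repeats to which reads cannot be aligned contribute to the stretches was not tested.

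Wide regions did occur within the centres. The widest shared pair lay on chromosome 3, 824 kb below the position, where Kcr at 18573363 to 18577932 (4569 bp) lay wholly inside H3K14cr at 18573210 to 18578593 (5383 bp). The next widest shared Kcr regions were on chromosome 4 at 8771452 to 8774906 (3454 bp, with H3K14cr of 3982 bp) and on chromosome 9 at 2359541 to 2362580 (3039 bp, with H3K14cr of 2980 bp). Shared H3K14cr regions on chromosome 7 at 11429919 to 11434138 (4219 bp) and on chromosome 2 at 13495386 to 13499553 (4167 bp) each overlapped a much narrower Kcr region, of 1478 and 1780 bp.

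The widest H3K14cr regions without Kcr were 2 on chromosome 6, at 16056549 to 16061884 (5335 bp) and at 14385109 to 14390420 (5311 bp), and 1 on chromosome 5 at 12011732 to 12016968 (5236 bp). Kcr regions without H3K14cr were narrower. The widest were on chromosome 12 at 12786138 to 12788221 (2083 bp), on chromosome 10 at 8997526 to 8999206 (1680 bp) and on chromosome 7 at 12762349 to 12764025 (1676 bp). All 3 of these lay 663 to 887 kb from the position, on the side of higher coordinates.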

How the data were processed

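The 2 deposited lists, 1 per mark, hold the chromosome, start and end of each enriched region in base pairs and no other value, per the files. Bowtie was the authors' aligner, per the submitters' processing notes. The sources used here do not state the Bowtie version, build, peak caller or threshold, or how the mock serum control and the 2 replicates entered. A place without a region may still hold signal below the authors' threshold. Regions were assigned to centres and flanks by midpoint, and covered bases were clipped to each window. The gene table at hand belongs to another assembly and was not used, and no sequence is shown. The 12 paired values per chromosome were tested with the sign-flip permutation test over all 4096 sign patterns (Python 3.11.15, numpy 2.4.6, pandas 2.3.3). Ratios carry Clopper-Pearson and shares Wilson intervals (SciPy 1.17.1), at 95%. Both kinds cover counting error only and treat neighbouring regions as independent, so they may be too narrow. Only the test of Kcr density was tried on simulated lists, whose regions were placed independently of each other. The other tests were not tried in this way, and no clustering of regions was simulated. Regions were named by rule: the nearest to each position, the 3 widest of each class per mark, and the longest empty stretch of each centre; chromosomes were named for the extremes of each ratio and for exceptions. The members, windows and tests were chosen with earlier results of these data known; class and width-class densities, the difference in width change, edges of pairs, empty-stretch shares and window ranks were chosen after their values or related ones were seen.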

Additional observations from a re-analysis of the deposited data

Results flagged for a closer look

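The contrast between centres and flanks differed between the marks. The log2 density ratio of Kcr minus that of H3K14cr averaged 0.38 over 12 chromosomes, by a direct test of this difference (exact sign-flip permutation test, adjusted p = 0.00527, positive on 10 of 12 chromosomes). It ranged from 0.34 to 0.43 with single chromosomes left out, and from 0.19 to 0.72 over the other settings on the log2 scale, with adjusted p-values of 0.00146 to 0.0242. The lists differ in length, and the depth and threshold behind each are unknown; their part in the difference was not tested.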

How the results depend on the processing

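No paired analysis was possible between replicate libraries, because the 2 replicates of a mark stand behind a single list. For the same reason no replicate could be left out. The pairing in the tests was that of centre and flanks within each chromosome. The flanks on single sides and all settings of the 3 added tests were chosen after seeing the data. Of 288 values under alternative settings, 250 kept their direction and their side of the threshold (adjusted p of 0.05). The others mostly concern Kcr contrasts near 0, and the cause of the changes was not tested. Leaving out chromosomes in turn gave log2 ratios of -0.036 to 0.12 for Kcr density and -0.045 to 0.082 for Kcr coverage, width differences of -1.86 to 18.7 bp for Kcr, and differences of 4.64 to 7.07 points in the share of Kcr regions that overlap H3K14cr. That share passed the test without chromosome 6 (7.07 points) and without chromosome 10 (7.02 points). For H3K14cr the same gave -0.40 to -0.31 (density), -0.55 to -0.47 (coverage), -197 to -158 bp (width) and 13.5 to 15.1 points (share), all with an adjusted p of at most 0.0105.

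Kcr density and coverage changed sign with a centre of 0.5 Mb to each side (-0.14 and -0.14), flanks of 1 to 3 Mb (-0.0071 and -0.024), the rest of the chromosome as the comparison (-0.40 and -0.56), positions moved 0.5 Mb to higher coordinates (-0.087 and -0.12), the wider 50% of each list (-0.059 and -0.084) and the lower flank alone (-0.013 and -0.012). The Kcr width difference changed sign against the rest of the chromosome (-81.1 bp), in the wider 50% (-12.2 bp) and as a mean width (-9.93 bp). The share of Kcr regions that overlap H3K14cr passed with a centre of 0.5 Mb (10.98 points), a centre of 2 Mb (6.59), flanks of 2 to 5 Mb (7.80), the rest of the chromosome (10.52), positions moved 0.5 Mb lower (9.42) and 50% reciprocal overlap (9.02), and was -6.74 points in the wider 50%. H3K14cr density no longer passed with a centre of 2 Mb (-0.15). With positions moved 0.5 Mb it was -0.24 (lower) and -0.36 (higher), below 0 on 9 of 12 chromosomes in both (exact permutation test, adjusted p = 0.0300 and 0.0117). In the wider 50% of each list the H3K14cr width difference (-43.1 bp), the share of H3K14cr regions that overlap Kcr (6.02 points) and the difference in width change (30.9 bp) no longer passed; that setting removes the narrower 50% of regions by construction.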
